A study of Homo sapiens with 6 samples.

Results

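Cells make cholesterol and fatty acids from acetyl-CoA along separate routes that are controlled at the level of transcription by the same family of factors, the sterol regulatory element binding proteins (SREBPs). SREBF2 and SREBF1 encode these factors, which are made as membrane proteins of the endoplasmic reticulum. When sterols are scarce, SCAP escorts them to the Golgi, where proteases release the part that enters the nucleus. When sterols are plentiful, INSIG1 holds SCAP and its cargo back. SREBP-2 is known mainly for the genes of cholesterol synthesis, and SREBP-1 for those of fatty acid synthesis.

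The 32 genes described here were chosen by name from the 57820 genes of the expression table, by a rule that applies no threshold to a measured value. The choice was made with earlier results of these data known. They comprise 19 genes of sterol synthesis (8 for the mevalonate and isoprenoid steps and 11 from squalene to cholesterol), 7 of fatty acid synthesis and desaturation, 4 regulators of SREBP and 2 others, the sterol carrier STARD4 and the phosphatidate phosphatase LPIN1. All 32 had enough counts to be tested. The libraries came from M14, a human melanoma cell line that carries an shRNA against STAG2, a cohesin subunit, under a doxycycline-inducible promoter. WT denotes the 3 libraries from these cells grown without doxycycline, and KD the 3 libraries from cells grown with it, in both cases after 5 days. All cells carried the shRNA. The paper states that stable populations were held in hygromycin, blasticidin or puromycin, without naming the one used for these cells. Because doxycycline was present only in KD, knockdown and the drug itself cannot be told apart, and all values come from 1 cell line. The labels do not say that the libraries of a group were separate cultures, so p-values measure the spread between these libraries.

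Each library held between 24895998 and 35181733 expected counts, and 3 counts corresponded to at most 0.112 CPM, the count of a gene scaled to a fixed library size. STAG2 measured 66.5, 34.8 and 28.8 CPM in WT and 16, 7.31 and 6.7 CPM in KD. No KD library reached the lowest WT library, and the KD mean was 23% of the WT mean (log2 fold change -2.12 ± 0.43, where ± gives the SE here and below, and adjusted p = 0.0342 by edgeR's quasi-likelihood test). A gene was called where this adjusted p was under 0.05. The call of STAG2 was lost without WT replicate 2 (adjusted p = 0.0757), WT replicate 3 (0.0652), KD replicate 2 (0.168) or KD replicate 3 (0.152), and with library totals as the only scaling (0.0591). All 8 melanocyte lineage markers were present in every library, with summed levels of 6309, 1916 and 1862 CPM in WT and 2602, 1267 and 1194 CPM in KD. Of these, 7 had a lower mean in KD, 1 was called lower (S100B, log2 fold change -1.35, adjusted p = 0.00949) and 6 were with the replicate number as a block. Their part in the results below was not tested. Markers of epithelial, blood and endothelial cells reached at most 3.95 CPM (KRT14), and CD3E was at 0 throughout. The mitochondrial share of counts was 5.07% in WT replicate 1 and 2.12% to 2.94% in the other libraries. WT replicate 1 had the highest value of its group for 15 of the 32 lipid genes, WT replicate 2 for 8 and WT replicate 3 for 9.

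The promoters of these genes are known for short DNA elements at which SREBPs and their partner factors bind. Windows from 250 bases before to 50 bases after the RefSeq transcription start (table of the GRCh38.p14 assembly) were at hand for 28 of the 32 genes, all but ACAT2, FASN, FDFT1 and SQLE. They were searched on both strands for TCACNCCAC, a form of the sterol regulatory element, for CCAAT, the box bound by NF-Y, and for GGGCGG, the box bound by Sp1. Each motif was counted by itself, so a base could belong to more than one. TCACNCCAC was found for 1 of the 28 genes (3.57%), SREBF2, against 1.39% of all 27305 gene symbols with a window. CCAAT was found for 21 of the 28 (75.0%, against 39.7% of all symbols), with at least 2 boxes for 14 of them, against 12.9% of all symbols. GGGCGG was found for 27 of the 28 (96.4%, against 48.3%). A match describes these letters only and is not evidence of binding.

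The stretches around the boxes are printed for SREBF2, which held the sterol regulatory element, and for the 4 genes with a window whose RNA was called lower in KD below, which were picked after their values were seen. Each was located in GRCh37, the build of the deposited counts, runs 5′ to 3′ on the strand of its gene, and lies upstream of the RefSeq start. The last bases of the HMGCS1 and MVD stretches fall inside the gene as GENCODE annotates it, and the other stretches lie before it. Capitals mark a TCACNCCAC match or a CCAAT box, which reads ATTGG where it lies on the opposite strand. The SREBF2 stretch is at chr22:42228961-42229022 on the plus strand, HMGCS1 at chr5:43313595-43313684 on the minus strand, MVD at chr16:88729565-88729673 on the minus strand, LSS at chr21:47648819-47648853 on the minus strand and SCD at chr10:102106746-102106823 on the plus strand.
SREBF2: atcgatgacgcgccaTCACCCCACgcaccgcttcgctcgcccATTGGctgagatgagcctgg
HMGCS1: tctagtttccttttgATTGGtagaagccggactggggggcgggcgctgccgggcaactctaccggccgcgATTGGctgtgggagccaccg
MVD: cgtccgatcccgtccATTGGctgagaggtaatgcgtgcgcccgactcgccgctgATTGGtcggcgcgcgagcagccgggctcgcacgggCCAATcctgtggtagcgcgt
LSS: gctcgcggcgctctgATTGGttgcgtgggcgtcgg
SCD: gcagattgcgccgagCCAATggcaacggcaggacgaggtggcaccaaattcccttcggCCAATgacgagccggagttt

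The comparison of KD with WT asked how the RNA of the lipid synthesis genes changed after 5 days of STAG2 knockdown. The genes that fell at an adjusted p under 0.05 were ACAT2, HMGCS1 and MVD of the mevalonate route, LSS of the later sterol route and SCD of the fatty acid route. None of the 32 was called higher. The called genes were 5 of 32, where 0.839% of the 15605 genes tested were called lower in KD, 1.75% higher and 2.59% in either direction. The median log2 fold change of the 32 was -0.71, against -0.03 over all genes tested, and 29 of the 32 lay below 0. Levels in the 3 KD libraries were all below those in the 3 WT libraries for 21 of the 32 genes (65.6%), as they were for 10.5% of all genes tested, and in no gene of the 32 were all KD levels above, against 11.8% of all genes. Because the genes were chosen with earlier results of these data known, these shares are a description and not a test. Bulk RNA cannot tell fewer cells making a transcript from less of it per cell.

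**Figure D1:**
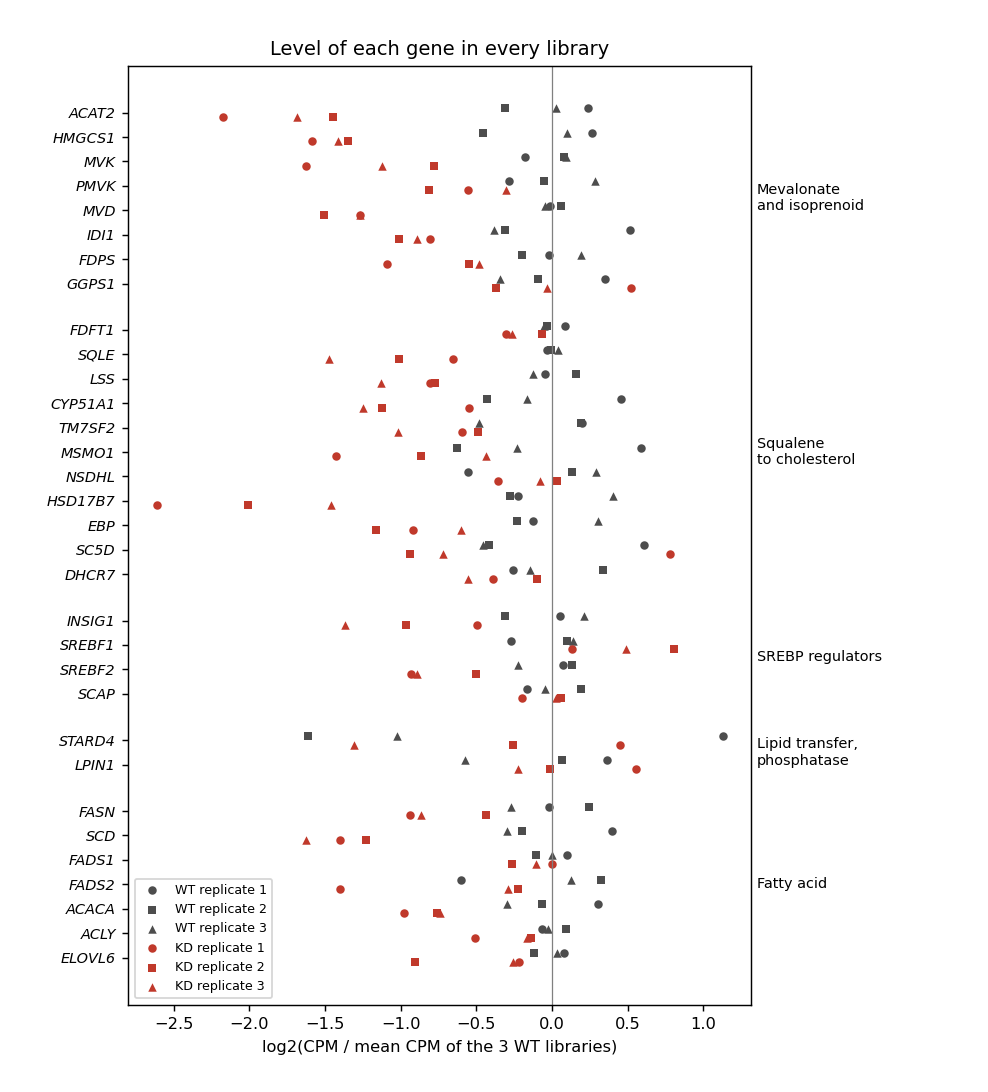
Level of each of the 32 genes in each of the 6 libraries, as log2 of its CPM over the mean CPM of the 3 WT libraries (grey, WT; red, KD; marker shape, replicate number), with the genes in order of role. KD values lie left of all WT values for 21 of the genes, and SREBF1, the gene with the highest log2 fold change, has its 3 KD values right of 0.

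Libraries with the same replicate number deviated together from their group means (r = 0.356 to 0.565 over genes). Between libraries of different number r was -0.525 to 0.275. Deviations within a group cancel out, so these lower values follow in part from the same-number ones and are not separate evidence of pairing. Because same-numbered libraries deviated together, the replicate number was also entered as a block. With it, 15 of the 32 genes were called lower in KD and 0 higher, where 4.42% of all genes tested were lower and 5.1% higher. All 5 genes named above were among the 15. DESeq2 without a block called 14 of the 32 lower and 0 higher, the same 15 genes except FDPS. Over all genes it called 432 lower and 547 higher. By limma-voom, also without a block, 6 of the 32 were called lower, the 5 named above and MVK. Over all genes limma-voom called 137 lower and 275 higher. Within the pairs of libraries that share a number, 25 of the 32 genes were lower in KD in 3 of 3 pairs. The exceptions were NSDHL, SC5D, SCAP and STARD4 (lower in 2 of 3), GGPS1 and LPIN1 (lower in 1) and SREBF1 (lower in 0). How many of all genes tested were lower in 3 of 3 pairs was not counted. The 32 genes together took 0.444%, 0.406% and 0.35% of all counts in WT and 0.264%, 0.291% and 0.259% in KD. The count of 5 fell to 2 without WT replicate 3 or KD replicate 1, to 1 without KD replicate 2 and to 0 without KD replicate 3. Calls fell over all genes too. Those lower in KD went from 131 to 34, 56, 30 and 15 in these fits, in the order named.

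The first steps build mevalonate from acetyl-CoA and turn it into isoprenoid units. ACAT2, the cytosolic thiolase that joins acetyl-CoA molecules, measured 44.3, 30.3 and 38.2 CPM in WT and 8.31, 13.8 and 11.7 CPM in KD. Each KD library was below each WT library, and the KD mean was 30% of the WT mean (log2 fold change -1.74 ± 0.28, adjusted p = 0.0112). HMGCS1, the HMG-CoA synthase of the following step, measured 31.2, 18.9 and 27.8 CPM in WT and 8.65, 10.2 and 9.76 CPM in KD. The KD values lay close together and below the lowest WT value, at 36.8% of the WT mean (log2 fold change -1.44 ± 0.28, adjusted p = 0.0279). MVD, which decarboxylates the phosphorylated mevalonate to isopentenyl pyrophosphate, measured 53.2, 56 and 52 CPM in WT and 22.3, 18.9 and 22.3 CPM in KD. Both groups were tight and far apart, with a KD mean of 39.4% of WT and the smallest p of the 32 genes (log2 fold change -1.34 ± 0.20, adjusted p = 0.0072). ACAT2 lost its call without WT replicate 3 (adjusted p = 0.0569) or KD replicate 3 (0.0831), and MVD without KD replicate 2 (0.0592) or KD replicate 3 (0.0531). HMGCS1 lost it without WT replicate 3 (0.118) or any one KD library (0.0899 to 0.134).

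MVK, the kinase that phosphorylates mevalonate, measured 30.4, 36.4 and 36.7 CPM in WT and 11.2, 20.1 and 15.8 CPM in KD. The groups did not overlap, and MVK was called with the replicate block and, without it, by DESeq2 (adjusted p = 0.00758) but not by edgeR (log2 fold change -1.14 ± 0.27, adjusted p = 0.0613, with the block -1.17, adjusted p = 0.00571). FDPS, the farnesyl pyrophosphate synthase from which the sterol and prenyl branches part, measured 186, 165 and 216 CPM in WT and 88.8, 129 and 135 CPM in KD. Again the KD libraries were all lower, at 62.1% of the WT mean, with an adjusted p of 0.163, or 0.0268 with the block. Of the remaining mevalonate genes, the second kinase PMVK, the isomerase IDI1 and the geranylgeranyl pyrophosphate synthase GGPS1 passed neither test, with log2 fold changes from -0.90 to 0.08 and adjusted p of at least 0.222, or 0.077 with the block. PMVK and IDI1 were lower in every KD library than in every WT library, while GGPS1 overlapped between the groups. In all, 3 of the 8 genes of these steps were called lower, 5 with the block, and the median log2 fold change of the 8 was -1.02. Over all genes tested, 0.839% were called lower, 4.42% with the block, and the median was -0.03.

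**Figure D2:**
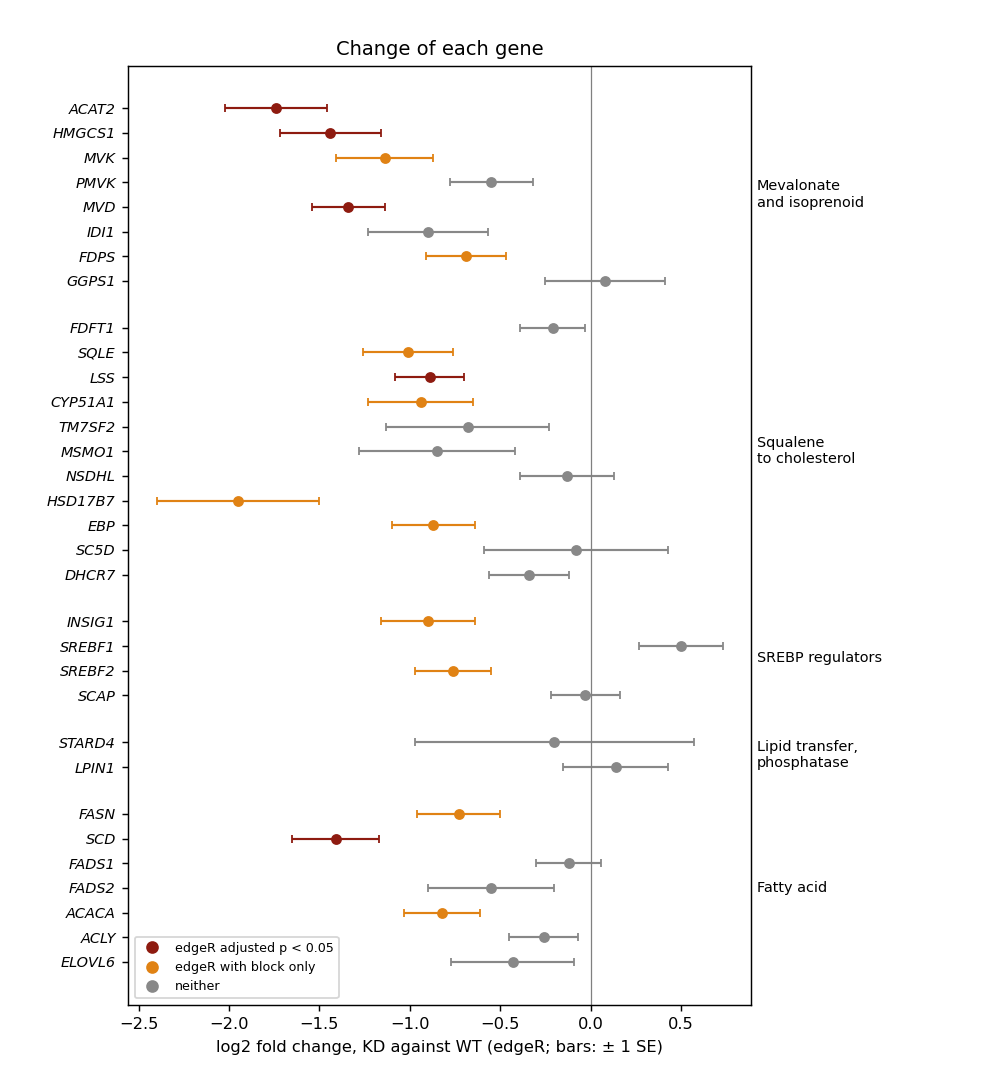
Log2 fold change of each of the 32 genes, KD against WT, from edgeR (points) with 1 standard error on each side (bars). Dark red marks the 5 genes with an adjusted p under 0.05, orange the 10 that pass in edgeR with the replicate block but not without it and grey the other genes; all coloured points lie left of 0.

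From squalene onward, LSS, the cyclase that makes lanosterol, was the 1 gene of 11 that was called lower. Its levels were 153, 177 and 145 CPM in WT and 90.7, 92.7 and 72.2 CPM in KD. The KD mean stood at 53.9% of the WT mean without overlap (log2 fold change -0.89 ± 0.19, adjusted p = 0.0451). This call was near the threshold and was kept only when WT replicate 1 was the library left out (the other 5 omissions gave adjusted p of 0.104 to 0.245). SQLE, the squalene epoxidase that feeds LSS, measured 41.7, 42.6 and 43.9 CPM in WT and 27.1, 21.2 and 15.4 CPM in KD. The WT values were nearly equal, the KD values spread more widely, and the groups did not overlap (log2 fold change -1.01 ± 0.25, adjusted p = 0.0718, with the block -1.05, adjusted p = 0.0125).

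CYP51A1, which demethylates lanosterol, measured 73.6, 39.8 and 47.8 CPM in WT and 36.8, 24.7 and 22.6 CPM in KD. Its highest KD value fell just short of its lowest WT value, and both high values came from libraries numbered 1 (log2 fold change -0.94 ± 0.29, adjusted p = 0.149, with the block -0.92, adjusted p = 0.00902). HSD17B7, a ketoreductase of the removal of methyl groups at C4, measured 8.16, 7.86 and 12.6 CPM in WT and 1.56, 2.37 and 3.46 CPM in KD. At 25.8% of the WT mean its log2 fold change was the lowest of the 32 genes, although on 50 to 346.38 expected counts a library (-1.95 ± 0.45, adjusted p = 0.0569, with the block -1.99, adjusted p = 0.00944). Its copy HSD17B7P2, to which reads could have been divided, had a mean of 25.6 expected counts over the WT libraries and 12.9 over KD. EBP, the sterol isomerase, measured 95.1, 88.6 and 128 CPM in WT and 55, 46.4 and 68.6 CPM in KD. All 3 KD libraries were lower, and the same-numbered differences were alike, at -0.79, -0.93 and -0.90 on the log2 scale (adjusted p = 0.088, with the block 0.00522).

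The other 6 genes of these steps passed neither test, with log2 fold changes from -0.85 to -0.08. They were the squalene synthase FDFT1, the sterol reductase TM7SF2, the oxidase MSMO1 and the dehydrogenase NSDHL of C4 demethylation, the desaturase SC5D and the reductase DHCR7. SC5D measured 17.7, 8.7 and 8.45 CPM in WT and 19.9, 6.06 and 7.04 CPM in KD. Its highest level in each group was in the library numbered 1, so the groups overlapped and its log2 fold change of -0.08 rests on that spread. TM7SF2 lies on the same strand over part of VPS51, whose mean was 2258.9 expected counts over the WT libraries and 1980.7 over KD, so its low count could include reads of that gene. Across the 11 genes, the same 5 were called with the block and by DESeq2 without it. The median log2 fold change was -0.85, and 7 showed no overlap, all 7 with KD below WT. Of all genes tested, 10.5% had every KD library below WT, 0.839% were called lower and 4.42% were with the block.

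Among the regulators, none of 4 was called by edgeR, although 2 had an unadjusted p under 0.05, 2 were called by DESeq2 and 2 with the block. Over the 15605 genes tested, 1212 were higher and 1090 lower in KD at an unadjusted p under 0.05 in edgeR. With the block, 4.42% of all genes tested were called lower, and DESeq2 called 432 lower. SREBF2, which encodes SREBP-2, measured 476, 496 and 388 CPM in WT and 237, 320 and 244 CPM in KD. Every KD library was below every WT library, at 58.9% of the WT mean (log2 fold change -0.76 ± 0.21, adjusted p = 0.102, with the block -0.77, adjusted p = 0.00846). INSIG1, the sterol-dependent brake that is itself a well known SREBP target, measured 65.4, 50.8 and 72.7 CPM in WT and 44.7, 32.2 and 24.4 CPM in KD. Here too the groups did not overlap, with a KD mean of 53.7% of WT (log2 fold change -0.90 ± 0.26, adjusted p = 0.129, with the block -0.92, adjusted p = 0.0261). DESeq2 without a block called both (adjusted p = 0.00849 for SREBF2 and 0.0348 for INSIG1). By limma-voom neither was called (adjusted p = 0.0791 for SREBF2 and 0.0998 for INSIG1).

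SREBF1, which encodes SREBP-1, stood on the other side. Its levels were 234, 302 and 310 CPM in WT and 309, 492 and 396 CPM in KD. The lowest KD value lay just under the highest WT value, but KD was higher in 3 of 3 same-numbered pairs, by 0.40, 0.70 and 0.35 on the log2 scale. Neither test called it (log2 fold change 0.50 ± 0.23, adjusted p = 0.351, with the block 0.49, adjusted p = 0.0599). SCAP, the escort, measured 88.2, 113 and 95.9 CPM in WT and 86.4, 103 and 101 CPM in KD. These ranges coincide, with a log2 fold change of -0.03 ± 0.19 (adjusted p = 0.969). For 7 further genes that process or degrade SREBP and its partners (INSIG2, the proteases MBTPS1 and MBTPS2, RNF139, ERLIN1, ERLIN2 and MARCH6), 0 were called by edgeR with or without the block, 0 had an unadjusted p under 0.05, and DESeq2 called 0. Their log2 fold changes ran from -0.24 to 0.28, and all 7 overlapped between the groups. Most genes did the same: 12127 of the 15605 tested overlapped, and edgeR called 2.59%.

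**Figure D3:**
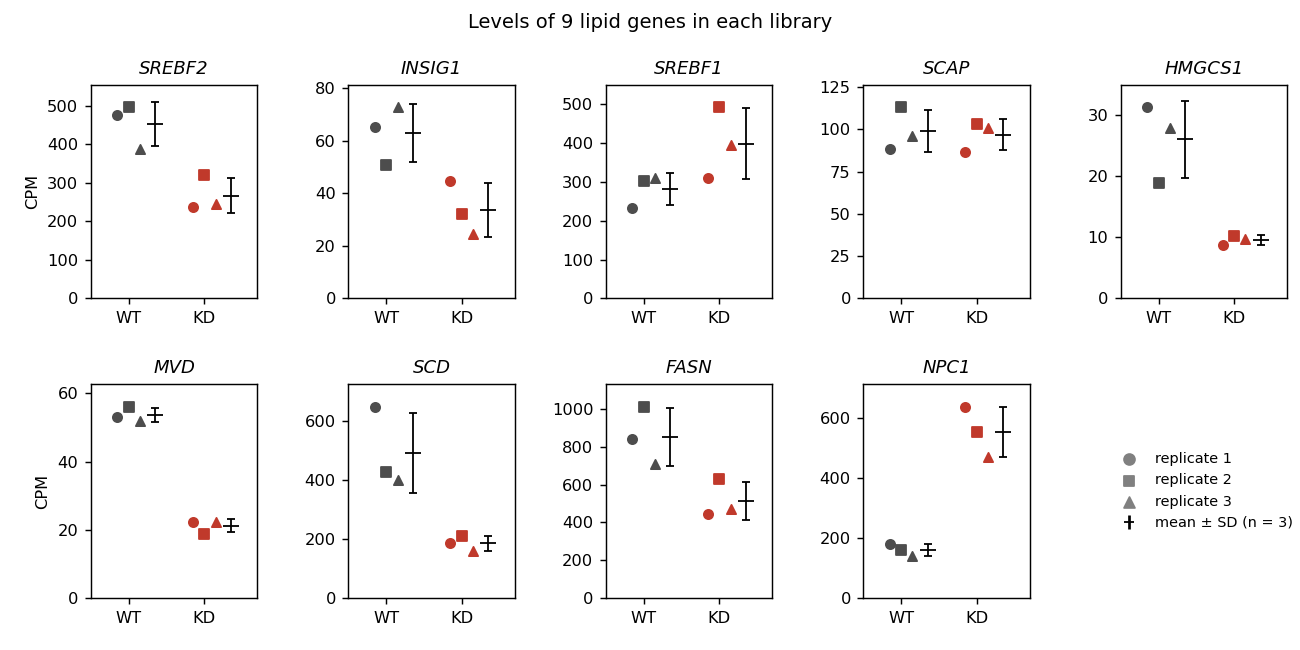
CPM of 9 genes in each library (grey, WT; red, KD; marker shape, replicate number) with the mean ± SD of each group of 3 beside the points; every axis starts at 0. SREBF2, INSIG1, HMGCS1, MVD, SCD and FASN are lower in every KD library than in every WT library, SREBF1 and SCAP overlap, and NPC1 is higher in every KD library.

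On the fatty acid route, SCD, the desaturase that puts the double bond into stearate and palmitate, fell. It measured 647, 427 and 399 CPM in WT and 186, 209 and 159 CPM in KD. WT replicate 1 stood above the other WT libraries, and the KD libraries were all lower, at 37.6% of the WT mean (log2 fold change -1.41 ± 0.24, adjusted p = 0.0153). The call held without any one WT library and was lost without any one KD library (adjusted p from 0.0625 to 0.122). FASN, the synthase that builds palmitate, measured 838, 1010 and 706 CPM in WT and 443, 629 and 468 CPM in KD. All KD values lay below all WT values, at 60.3% of the WT mean (log2 fold change -0.73 ± 0.23, adjusted p = 0.152, with the block -0.73, adjusted p = 0.00882).

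ACACA, the acetyl-CoA carboxylase that supplies malonyl-CoA, measured 84.9, 65.8 and 56 CPM in WT and 35, 40.6 and 41.2 CPM in KD. The groups did not overlap, and ACACA was called with the block and by DESeq2 without it (adjusted p = 0.0187) but not by edgeR without it (log2 fold change -0.82 ± 0.21, adjusted p = 0.0903, with the block -0.80, adjusted p = 0.0279). The other 4 genes passed neither test: ACLY, which makes cytosolic acetyl-CoA from citrate, the elongase ELOVL6, and the desaturases FADS1 and FADS2 of polyunsaturated fatty acids, with log2 fold changes from -0.55 to -0.12. ACLY and ELOVL6 were lower in every KD library, and FADS1 and FADS2 overlapped. FADS2 shares a strand and part of its length with FEN1, whose mean was 4558.3 expected counts over the WT libraries and 3664.3 over KD, so reads of the pair may not be fully separated. In all, 1 of the 7 fatty acid genes was called lower, and 7 of 7 lay below 0. The same 3 were called with the block and by DESeq2 without it. Over all genes tested, 8119 of 15605 lay below 0, 0.839% were called lower and 4.42% were with the block.

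Set side by side, the sterol steps had 4 of 19 genes called lower (10 with the block) and a median log2 fold change of -0.87, and the fatty acid steps had 1 of 7 (3 with the block) and a median of -0.55. The shares called lower over all genes tested were 0.839% and, with the block, 4.42%. Sterol genes in KD stood at 25.8% to 106% of their WT mean, with a median of 54.6%, and fatty acid genes at 37.6% to 92% with a median of 68.5%. Averaged over the 19 sterol genes, the log2 level relative to the WT mean was 0.11, -0.10 and -0.01 in the WT libraries and -0.83, -0.83 and -0.82 in the KD libraries. Over the 7 fatty acid genes it was 0.04, 0.04 and -0.09 in WT and -0.76, -0.55 and -0.56 in KD. Both averages separated the groups, and the KD libraries were nearly equal for the sterol steps. Between libraries of the same number, the sterol average fell by 0.94, 0.73 and 0.81 and the fatty acid average fell by 0.80, 0.59 and 0.47, while the median of all genes moved by -0.04, 0 and 0.01. Sterol genes were lower in KD for 16, 19 and 18 of 19 in the 3 pairs, and fatty acid genes for 7 of 7 in each. The same counts were not made over all genes. The sterol average was the lower one by 0.14, 0.14 and 0.34. By medians over the genes the gap was smaller or absent, with differences of -0.79, -0.70 and -0.68 for the sterol steps and -0.79, -0.68 and -0.41 for the fatty acid steps. Without WT replicate 1 the median log2 fold changes were -0.68 and -0.65. This difference between the routes is a description of 3 pairs and was not tested.

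The median log2 fold change of the sterol genes was -0.66 with both libraries numbered 1 left out, and 9 of the 32 genes were then called lower, all 5 of the genes named first among them. Calls rose over all genes too, with 296 of 15991 called lower in that fit, against 131 of 15605 in the fit as reported. The genes at the ends of the range within each route were unlike one another. ACAT2, HSD17B7, HMGCS1 and MVD had KD levels under 40% of WT, whereas GGPS1, SC5D and NSDHL in the same pathway were at 106%, 94.7% and 91.7%. STARD4 was low and uneven, at 8.76, 1.31 and 1.97 CPM in WT and 5.48, 3.35 and 1.62 CPM in KD, and LPIN1 overlapped with a log2 fold change of 0.14. Of the 12 genes with a promoter window that were called in either fit, 11 held a CCAAT box, as did 10 of the 16 uncalled genes.

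Other lipid genes were read from the same fit by lists. For comparison, 1212 of the 15605 genes tested were higher and 1090 lower in KD at an unadjusted p under 0.05. Of the 15605 genes, DESeq2 called 979 and edgeR 404. With the block, edgeR called 796 higher and 690 lower. NPC1, which carries cholesterol out of late endosomes and lysosomes, was the 1 gene called among 12 tested for sterol export, storage and the LXR receptors. It measured 181, 161 and 139 CPM in WT and 637, 553 and 470 CPM in KD. All KD values exceeded the WT values, with a mean at 345% of the WT mean (log2 fold change 1.79 ± 0.21, adjusted p = 0.00183), and the call held in all 16 alternative settings (adjusted p up to 0.0195). With the block, NR1H2, which encodes the receptor LXR beta, and SOAT1, which esterifies cholesterol, were also called higher (log2 fold changes 0.61 and 0.69, adjusted p = 0.0374 and 0.0195); these and the genes named below for the block were singled out after their values were seen. The sterol transporter gene ABCG1 measured 0.0745, 0 and 0 CPM in WT and 1.43, 0.711 and 0.826 CPM in KD and was not called, and CH25H was at 0 in every library.

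Among 7 accessory genes of sterol synthesis, 0 were called by edgeR, 2 had an unadjusted p under 0.05, both lower in KD, DESeq2 called 1 and the block called 2. Those 2 were LBR, the nuclear envelope protein that shares sterol reductase activity with TM7SF2, and C14orf1, a scaffold of C4 demethylation. LBR measured 30.5, 23.9 and 34.9 CPM in WT and 13.9, 14.8 and 15.4 CPM in KD. Its groups stood apart, at 49.3% of the WT mean (log2 fold change -1.02 ± 0.24, adjusted p = 0.0619, with the block adjusted p = 0.0142). In the non-sterol branches of the mevalonate pathway, which make ubiquinone, dolichol and prenyl groups, 0 of 12 genes were called by edgeR, 2 had an unadjusted p under 0.05, 1 in each direction, and DESeq2 called 0. With the block, the farnesyltransferase subunit FNTB was called lower (log2 fold change -0.60, adjusted p = 0.0424). The block called 4.42% of all genes tested lower and 5.1% higher.

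Of 23 further genes for fatty acid activation, elongation and triglyceride synthesis, 0 were called by edgeR, 7 had an unadjusted p under 0.05 (4 higher and 3 lower in KD), and DESeq2 called 3, all higher. With the block, 4 were called higher: LPIN2, a second phosphatidate phosphatase, DGAT2, which forms triglycerides, the malic enzyme ME1 and the elongase ELOVL1. LPIN2 measured 29.4, 31.8 and 20.8 CPM in WT and 47, 81.2 and 54.1 CPM in KD. Its KD libraries were all above WT (log2 fold change 1.15 ± 0.27, adjusted p = 0.0593, with the block 1.14, adjusted p = 0.00525). The acyl-CoA synthetase ACSL3 and the citrate carrier SLC25A1 were called lower with the block (log2 fold changes -0.73 and -0.64, adjusted p = 0.0208 and 0.0406). Over all genes tested, 5.1% were called higher and 4.42% lower with the block. For fatty acid oxidation, 0 of 18 genes were called by edgeR with or without the block, 2 had an unadjusted p under 0.05, both lower, DESeq2 called 0, and the median log2 fold change was 0.

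**Figure D4:**
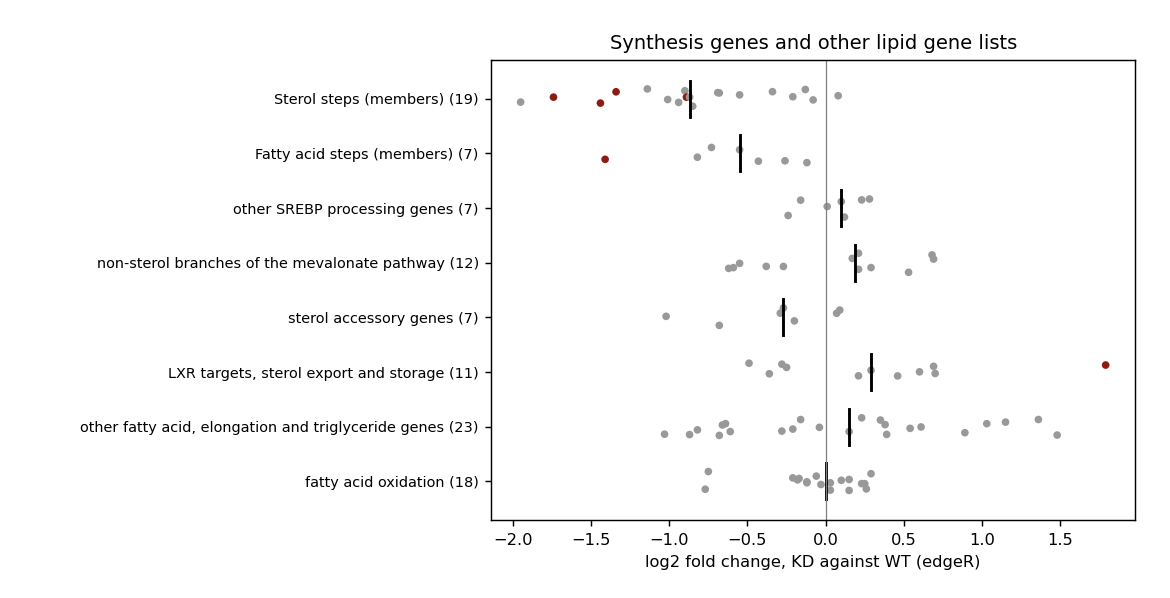
Log2 fold changes, KD against WT, of the sterol and fatty acid genes and of 6 other lists of lipid genes (points, 1 a gene; dark red, adjusted p under 0.05 in edgeR; black bars, list medians; numbers of genes plotted in brackets). The medians of the sterol and fatty acid steps are -0.87 and -0.55 and that of fatty acid oxidation is 0; ABCG1, nearly absent from WT, is not plotted.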

How the data were processed

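RNA was sequenced as directional poly(A) libraries, from which the authors obtained and deposited gene-level expected counts with STAR and RSEM on hg19, neither scaled nor filtered. RSEM divides reads that match several genes, so expected counts need not be whole. After rounding, filterByExpr kept 15605 genes, and the groups were compared with edgeR 4.0.16 in R 4.3.3 (quasi-likelihood test, TMM scaling). Adjusted p-values (Benjamini-Hochberg) cover the whole tested table, and the threshold was 0.05. CPM used TMM-scaled library sizes. With 3 libraries a group, an exact permutation test of 1 gene could not go below p = 0.1.

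Alternatives were the replicate number as a block, DESeq2 1.42.0, limma-voom (limma 3.58.1), other scalings and filters, and leaving out libraries. The labels give WT and KD the same replicate numbers. Over genes of at least 10 CPM, deviations from the group means correlated at r = 0.565, 0.453 and 0.356 between same-numbered libraries, so the numbers were taken to pair them. Between libraries of different number r ran from -0.525 to 0.275, values that are not separate evidence because deviations within a group cancel out. The highest of these, for WT replicate 2 and KD replicate 3, lay near the 0.356 of the libraries numbered 3. Pairing is thus less certain for the libraries numbered 2 and 3, and calls made with the block depend on it.

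The 32 genes and all lists were chosen with earlier results of these data known. Values are given for genes called with or without the block, for INSIG1, SREBF1, SREBF2, SCAP, HMGCS1, SQLE, FASN and SCD, and, in other lists, for genes called without it. SC5D, STARD4, ABCG1, LBR, LPIN2 and the other genes named in those lists were added after their values were seen. Only the edgeR fit without the block was tested on simulated counts, which were drawn without pairing. Some genes are not reported here.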

Additional observations from a re-analysis of the deposited data

How the results depend on the processing

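Of the 32 genes, 5 were called in the fit as reported. The count was 15 with the replicate block, 14 by DESeq2, 13 with no filter on low counts, 9 with both libraries numbered 1 left out, 1 at an adjusted p under 0.01, and 0 to 5 with 1 library left out. By limma-voom it was 6. For the sterol steps the count was 4, against 10 with the replicate block, 9 by DESeq2, 9 without the filter, 7 without both libraries numbered 1, 1 at 0.01, and 0 to 4 with 1 library left out. For the fatty acid steps it was 1, against 3 with the replicate block, 3 by DESeq2, 2 without the filter, 0 at 0.01, and 0 to 1 with 1 library left out. No setting called a gene of the 32 higher. The sterol median of -0.87 moved to -0.66 without both libraries numbered 1 and lay between -0.98 and -0.68 with 1 library left out; the fatty acid median of -0.55 lay between -0.74 and -0.48. STAG2 missed the threshold with library totals as the scaling (log2 fold change -2.12, adjusted p = 0.0591) and at 0.01 (-2.12, adjusted p = 0.0342), and ran from -2.63 to -1.68 with 1 library left out. Over all genes, 404 were called as reported (67.6% higher), 1486 with the block (53.6% higher), 979 by DESeq2 (55.9%) and 1103 without the filter (51.9%). By limma-voom 412 were called (66.7%), with both libraries numbered 1 left out 757 (60.9%), and with 1 library left out 121 to 531. Some uncalled genes changed sign: STARD4 (0.11 with the block, 0.22 by limma-voom, 0.61 without both libraries numbered 1, -0.69 to 1.08 with 1 left out), SC5D (-0.83 to 0.34), SCAP (-0.11 to 0.07), GGPS1 (-0.19 to 0.28), NSDHL (-0.34 to 0.04) and LPIN1 (-0.11 to 0.35). The pairing by number changed no call of the 32 genes or the other lists beyond those given above. Why the counts moved was not tested. Depth limits levels under 3 counts, or at most 0.112 CPM, which touches ABCG1 and none of the 32 genes.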
